A study of Mus musculus with 12 samples.

Results

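The genes described here are Psmb8, Psmb9 and Psmb10, the interferon-induced catalytic subunits of the immunoproteasome, Psme1 and Psme2, the subunits of its PA28 activator, and Nlrc5, a regulator of MHC class I genes. They were taken by symbol, 6 of the 27013 genes in the deposited expression table, and all 6 were among the 10778 genes with an adjusted p there. The study grew bone marrow cells of C57BL/6 mice, either wild-type (WT) or with a conditional knockout of Ythdf2 (Ythdf2 cKO), into macrophages with 20 ng/ml of M-CSF, a macrophage growth factor, over 7 days. All cells of both genotypes then received 100 ng/ml of LPS and 20 ng/ml of interferon gamma for 24 hours, which gives the inflammatory state called M1. YTHDF2 is a protein that binds N6-methyladenosine (m6A) on mRNA and promotes decay of the marked transcripts, so the design asks which transcripts carry m6A, which are bound by YTHDF2, and how RNA differs when YTHDF2 is lost. The 12 libraries form 6 groups of 2: m6A immunoprecipitate and input from WT, the same from Ythdf2 cKO, and YTHDF2 immunoprecipitate and input from WT. The driver of the deletion, the age and sex of the mice, and whether the 2 replicates came from separate mice are not stated in the labels, so a p-value may measure technical spread alone. There were no cells without LPS and interferon gamma, so induction of these genes was not measured.

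The proteasome is a barrel-shaped protease that degrades ubiquitin-marked proteins. Its standard catalytic subunits are encoded by Psmb5 (chymotrypsin-like activity), Psmb6 (caspase-like) and Psmb7 (trypsin-like). In cells exposed to interferon gamma, newly built barrels take in the products of Psmb8, Psmb9 and Psmb10 in their places, and the ring formed by the products of Psme1 and Psme2 opens the barrel's end. The peptides cut by this immunoproteasome feed MHC class I molecules, and macrophages are among the cells rich in it. NLRC5 is a protein of the NOD-like receptor family with a long row of leucine-rich repeats, and it activates transcription of MHC class I genes together with the RFX and NF-Y complexes.

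Short stretches of the start regions are printed first because the members are known as interferon-induced genes and because a peak described below is named for both Psmb9 and Tap1, whose starts lie close together. The RefSeq windows (GRCm38.p6, from 250 bases before to 50 bases after a start) covered 5 of the 6 members with 6 windows, and none was there for Nlrc5. Each window was searched on both strands for GAAA, any 2 bases and GAAA, the interferon-stimulated response element (ISRE), TTCNNNGAA, the gamma-activated site (GAS), and CCAAT, the Y box bound by NF-Y. The motifs do not overlap one another in the matches shown, and they were chosen with the windows in view. A match was found in 1 of the 6 windows for each motif, against 3.44%, 8.30% and 37.4% of all 32851 windows. In the runs, read 5′ to 3′ along the gene, capitals mark the match.
Psmb8, GAS, chr17:34198088-34198117, plus strand: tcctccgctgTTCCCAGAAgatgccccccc
Irf1, GAS, chr11:53769914-53769943, plus strand: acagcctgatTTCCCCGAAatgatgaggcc
Psme1, ISRE on the opposite strand, chr14:55578493-55578522, plus strand: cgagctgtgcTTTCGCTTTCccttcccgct
B2m, ISRE, chr2:122147538-122147567, plus strand: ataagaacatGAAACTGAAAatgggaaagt
Psmb9, Y box on the opposite strand, chr17:34187321-34187350, minus strand: gcgcagccgctgATTGGaaagccgagcccc
Irf1, an interferon-induced transcription factor, and B2m, the light chain of MHC class I, are shown for comparison. A Y box match, not printed, was also in the windows of Irf1, B2m and Psme3, the gene of a related activator outside the members. The Psmb8 match began at −97 relative to the RefSeq start, and the Psme1 match lay at 10 to 19. The Psmb9 match is the same DNA that reads as CCAAT at −222 to −218 in the window of Tap1, since the 2 genes start 226 bases apart on opposite strands. A match is a run of letters, and binding was not measured. No window of Psmb10 or Psme2 held any of these letters.

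No RNA of the 6 members passed the test between genotypes. All 6 values in the authors' deposited table were above 0, between 0.05 and 0.26 on the log2 scale, and each 95% interval included 0. The table gives no value for a single library, so the mean normalized count over the 4 input libraries, the log2 fold change and its standard error (SE) are what can be shown. No source used here says whether WT or cKO was divided by the other. Signs are therefore read against Ythdf2, the targeted gene, which was at 1.10 ± 0.16 (SE) with an adjusted p of 2.1e-09 and a mean normalized count of 1762 in the authors' deposited table. A member above 0 differed in the direction of Ythdf2, which does not by itself say which genotype had more of its RNA.

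Psmb9, which takes the place of the caspase-like subunit, had the highest value of the members. In the authors' deposited table it was at 0.26 ± 0.14, a 1.20-fold difference with a 95% interval from 0.988-fold to 1.45-fold, an unadjusted p of 0.0668 and, by their Wald test, an adjusted p of 0.569, at a mean normalized count of 4486. Psmb8, which takes the place of the chymotrypsin-like subunit, followed at 0.19 ± 0.13 in the authors' deposited table, with an interval from −0.06 to 0.44 and an adjusted p of 0.746, at a mean normalized count of 5923. Both intervals include 0, and both genes lie in the MHC region with Tap1 between them. Psmb10, which takes the place of the trypsin-like subunit and lies on another chromosome, had a mean normalized count of 4706 and a log2 fold change of 0.09 ± 0.12 (interval −0.16 to 0.33, adjusted p 0.963) in the authors' deposited table.

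Of the activator subunits, Psme1 was at 0.09 ± 0.12 in the authors' deposited table, with an interval from −0.15 to 0.33, an adjusted p of 0.955 and a mean normalized count of 6336. Psme2, its partner in the same ring, was at 0.05 ± 0.12 (interval −0.17 to 0.28, adjusted p 0.983, mean normalized count 4921), the lowest value of the members in the authors' deposited table. Nlrc5 was at 0.08 ± 0.13, with an interval from −0.17 to 0.33, an adjusted p of 0.970 and a mean normalized count of 6423 in the authors' deposited table. In order, the members ran Psmb9, Psmb8, Psme1, Psmb10, Nlrc5 and Psme2. The gap from the first to the last was 0.20, with a 95% interval from −0.15 to 0.56 (SEs combined as if independent), so no neighbours in this order differ beyond their error.

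The count of members that passed was 0 of 6 at an adjusted p under 0.05 and 0 of 6 at an unadjusted p under 0.05. The background in the authors' deposited table was 250 of 10778 tested genes, or 2.32%, past the adjusted threshold, 1.76% with a positive and 0.557% with a negative sign, and 9.99% at the unadjusted p. The members' 0 of 6 is to be read against these shares. The median of the members was 0.09, against −0.01 for all tested genes, of which 48.7% were above 0. The members are abundant: the lowest mean normalized count among them exceeded that of 90.3% of tested genes. The most abundant 25% of tested genes had a median of 0.04. At the SEs the authors gave, a member would have needed a log2 fold change between 0.38 (Psme2) and 0.46 (Psmb9) to pass, a 1.30-fold to 1.37-fold difference. The upper ends of the 6 intervals lay between 1.21-fold for Psme2 and 1.45-fold for Psmb9, so differences up to those sizes are within the errors of this comparison.

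**Figure D1:**
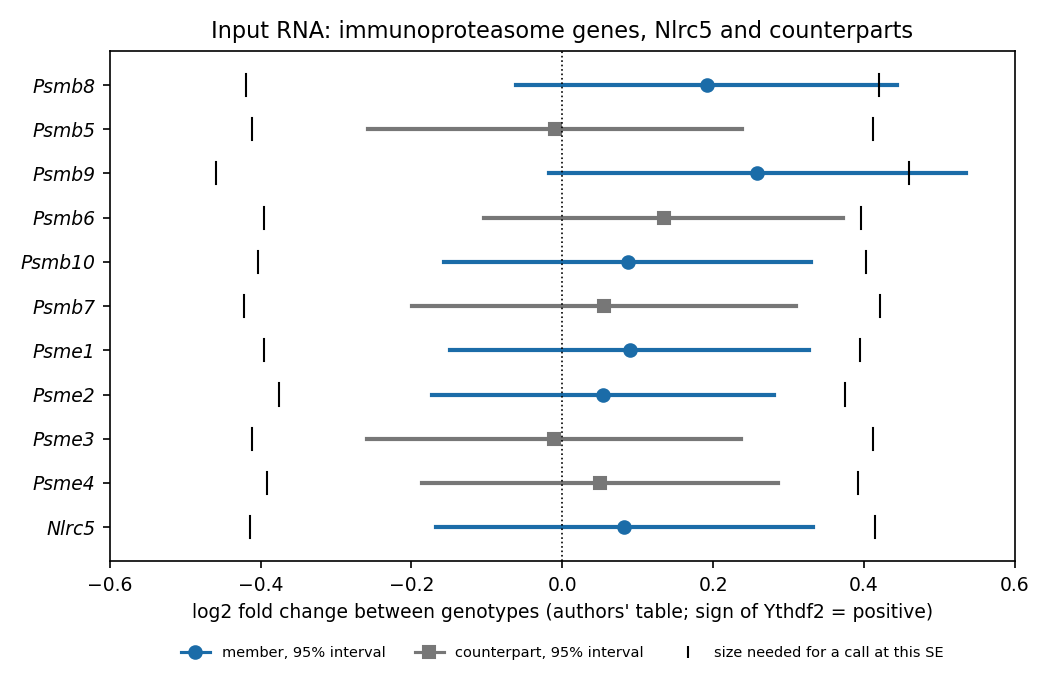
Log2 fold change between genotypes in input RNA (x axis, authors' deposited table, positive is the sign of Ythdf2) for the 6 members (circles) and their counterparts (squares), with 95% intervals as bars and the size each gene would need for a call at its SE as black ticks. All 6 member points lie to the right of 0 and left of their ticks, and every bar crosses 0.

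Each induced catalytic subunit was set against the subunit whose place it takes, and both PA28 subunits against Psme3, the gene of a related activator. Psmb5, the standard chymotrypsin-like subunit, was at −0.01 ± 0.13 in the authors' deposited table, and Psmb8 exceeded it by 0.20 (95% interval −0.15 to 0.55). Psmb6, the standard caspase-like subunit, was at 0.13 ± 0.12, and Psmb9 exceeded it by 0.12 (interval −0.24 to 0.49). Psmb7, the standard trypsin-like subunit, was at 0.06 ± 0.13, and Psmb10 exceeded it by 0.03 (interval −0.32 to 0.38). Psme3, which encodes the subunit of the related nuclear activator, was at −0.01 ± 0.13; Psme1 exceeded it by 0.10 (interval −0.24 to 0.44) and Psme2 by 0.07 (interval −0.27 to 0.40). All 5 intervals include 0, and the last 2 share Psme3 and so are not separate, so no difference between an induced subunit and its counterpart exceeded its error. These intervals treat the errors of both genes as independent, which the table does not allow to be checked.

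Related genes were described by 8 lists, of which 5 hold other proteasome genes and 3 hold MHC class I pathway, interferon gamma signalling and NLRC5 partner genes. Of their 71 tested genes, 0 passed at an adjusted p under 0.05 in the authors' deposited table (2.32% of all tested genes did), and 7 had an unadjusted p under 0.05 (9.99% of all tested genes did). Among the other subunits of the core barrel, 10 of 11 tested genes were below 0, with a median of −0.07, from Psma6 at −0.23 ± 0.13 to Psma4 at 0.05 ± 0.12. Among the genes of the regulatory particle that recognises ubiquitin and unfolds substrates, 15 of 18 were above 0, with a median of 0.04, from Psmd6 at −0.12 ± 0.14 to Psmd8 at 0.33 ± 0.14 (adjusted p 0.288). The standard catalytic subunits had a median of 0.06 over 3 tested genes, and Psmb11, the thymus-specific subunit, had a mean normalized count of 0.391 and was not tested.

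Other activators and the assembly factors had no gene past the test. Psme4, which encodes a large single-chain activator, was at 0.05 ± 0.12 in the authors' deposited table, and Psmf1, a proteasome inhibitor, at 0.10 ± 0.15. Of 8 assembly chaperones 6 were below 0, with a median of −0.08. Pomp, the chaperone needed to build the core and known to favour immunoproteasome assembly, was at −0.10 ± 0.12 in the authors' deposited table, on the other side of 0 from the 3 catalytic members, with an adjusted p of 0.944. The lowest of that list was Psmg4 at −0.44 ± 0.26 (adjusted p 0.637), and the highest, Psmd10 at 4.42 ± 1.96 (adjusted p 0.343), had a mean normalized count of only 57.2.

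Genes that receive or direct the members' products had the higher medians. In the MHC class I pathway list the median was 0.17, with 7 of 11 genes above 0 and 0 past the test. Its heavy chain H2-K1 stood at 0.32 ± 0.12 and H2-D1 at 0.21 ± 0.12 in the authors' deposited table, B2m at 0.07 ± 0.11, and the peptide transporter genes Tap1 and Tap2 at 0.17 ± 0.12 and 0.21 ± 0.14. The tapasin relative Tapbpl was highest at 0.32 ± 0.15, and the chaperone Canx lowest at −0.21 ± 0.11. In the interferon gamma signalling list the median was 0.15, with 8 of 11 above 0. Irf1 was at 0.15 ± 0.13, and the receptor chain Ifngr1 was lowest at −0.14 ± 0.12 in the authors' deposited table.

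The partners of NLRC5 gave a median of 0.09 over 6 tested genes. Rfx5, the DNA-binding subunit of the RFX complex, was at −0.01 ± 0.26 in the authors' deposited table; Rfxank was highest at 0.16 ± 0.23 and Creb1 lowest at −0.06 ± 0.14. Ciita, the relative of Nlrc5 that directs MHC class II genes, had a mean normalized count of 16.9 and no adjusted p. Each list's median lay within the middle 50% of all tested genes, which ran from −0.14 to 0.12, except the MHC class I pathway and interferon gamma signalling lists.

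**Figure D2:**
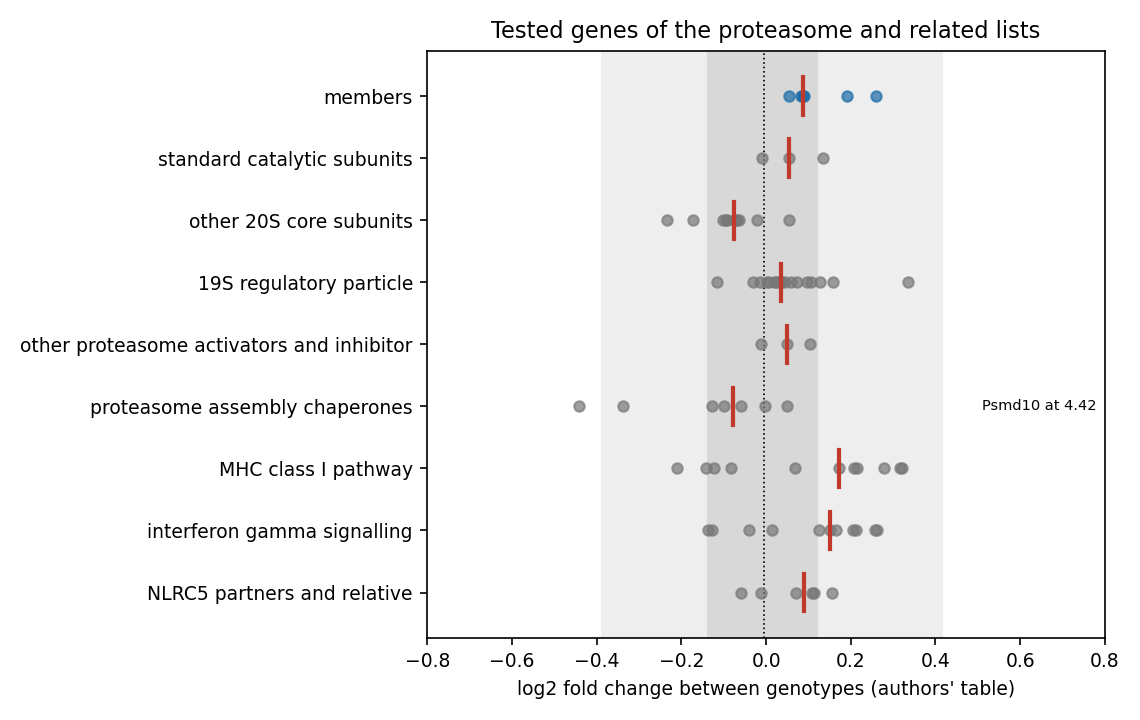
Log2 fold change between genotypes (x axis, authors' deposited table) of each tested gene in the members and 8 lists (rows), with the median of each row in red. Grey bands hold the middle 50% (dark) and middle 90% (light) of the 10778 tested genes, and the dotted line is their median; Psmd10 at 4.42 lies off the axis.

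The cells carried macrophage markers and few of other types. All 8 macrophage markers were tested in the authors' deposited table. Cd68 at 0.40 passed on the positive side, and Itgam at −0.55 and Lyz2 at −1.49 on the negative side, against 2.32% of all tested genes. Of the 8, 6 were below 0, with a median of −0.19, and 4 had an unadjusted p under 0.05 (9.99% of all tested genes did). The 6 members were all above 0, but the interval of each included 0, so their signs lie within their errors. Of 36 markers of neutrophils, dendritic, T, NK, B and erythroid cells and fibroblasts, 9 were tested and 1, Col1a1, passed, at 0.56. Summed mean normalized counts were 453641 for the macrophage list and 9169 for the neutrophil list, of which Csf3r made up 8496. They were 1515 for fibroblasts, 249.95 for T and NK cells, 69.7 for B cells, 41.8 for dendritic cells and 0.528 for erythroid cells. Cd4 made up 248.87 of the T and NK sum. It was at 0.79 ± 0.25, with an adjusted p of 0.0622 by the authors' Wald test. Ly6g, Cd3e, Siglech and Hba-a1 were each below 1. As these are cultures of many cells, fewer cells of a type and less RNA per cell cannot be told apart, and the part of either in the members' values was not tested.

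Of the members, 3 of 6 (50%) carried an m6A peak in the authors' list for WT cells: Psmb9, Psme1 and Nlrc5, with 8 peaks in all. Among all tested genes the share was 45.4%, and among the 1046 tested genes with a mean normalized count at or above that of the lowest member it was 68.5%. The list gives positions and strand but no level or p, and positions below are in mm10. The share among the members is thus near the first background and below the second, on 6 genes.

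Nlrc5 (chromosome 8, 94434335 to 94527272, plus strand) held 5 of the 8 peaks, a number reached by 271 genes, or 4.98% of those with a peak. The gene spans 92938 bases, and this share is not matched for gene length or abundance. The first peak, at 94434381 to 94434430, lay 47 to 96 bases from the RefSeq start, in a stretch where the noncoding gene 9330175E14Rik overlaps Nlrc5. The second, at 94459713 to 94459762, was of the same length, 50 bases, and neither fell in an exon that the other list names. The third and the fourth, at 94475815 to 94476264 and 94476715 to 94476914, fell in one long exon of 1663 bases. The last, at 94526205 to 94526354, fell in the final listed exon of 1294 bases. Long exons thus held 3 of the 5 Nlrc5 peaks.

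Psme1 (chromosome 14, 55578494 to 55581527) carried 2 m6A peaks, at 55579915 to 55580239 and 55580340 to 55580439, which lie 1422 to 1946 bases from its start in a gene of 3034 bases. No file used here gives its exons, so the peaks were not placed in one. Psmb9 (chromosome 17, 34182030 to 34187330, minus strand) carried 1 peak of 100 bases at its far end, 34181987 to 34182086. That peak fell in the 3′ UTR of the transcript that the other list names for Psmb9. Psmb8, Psmb10 and Psme2 had none, by symbol or by RefSeq synonym.

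The m6A list does name Psme2b, a copy of Psme2 on chromosome 11 by its RefSeq synonyms (RefSeq 48945345 to 48946410), which was noticed after its values were seen. Psme2b had 5 m6A peaks between 48946129 and 48947778, 1 of which touched its RefSeq span, and no peak in the list deposited as YTHDF2. Its mean normalized count in the authors' deposited table was 0.479, against 4921 for Psme2. Whether reads of Psme2 and Psme2b were told apart in either table was not tested, so the absence of an m6A peak from Psme2 is uncertain.

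**Figure D3:**
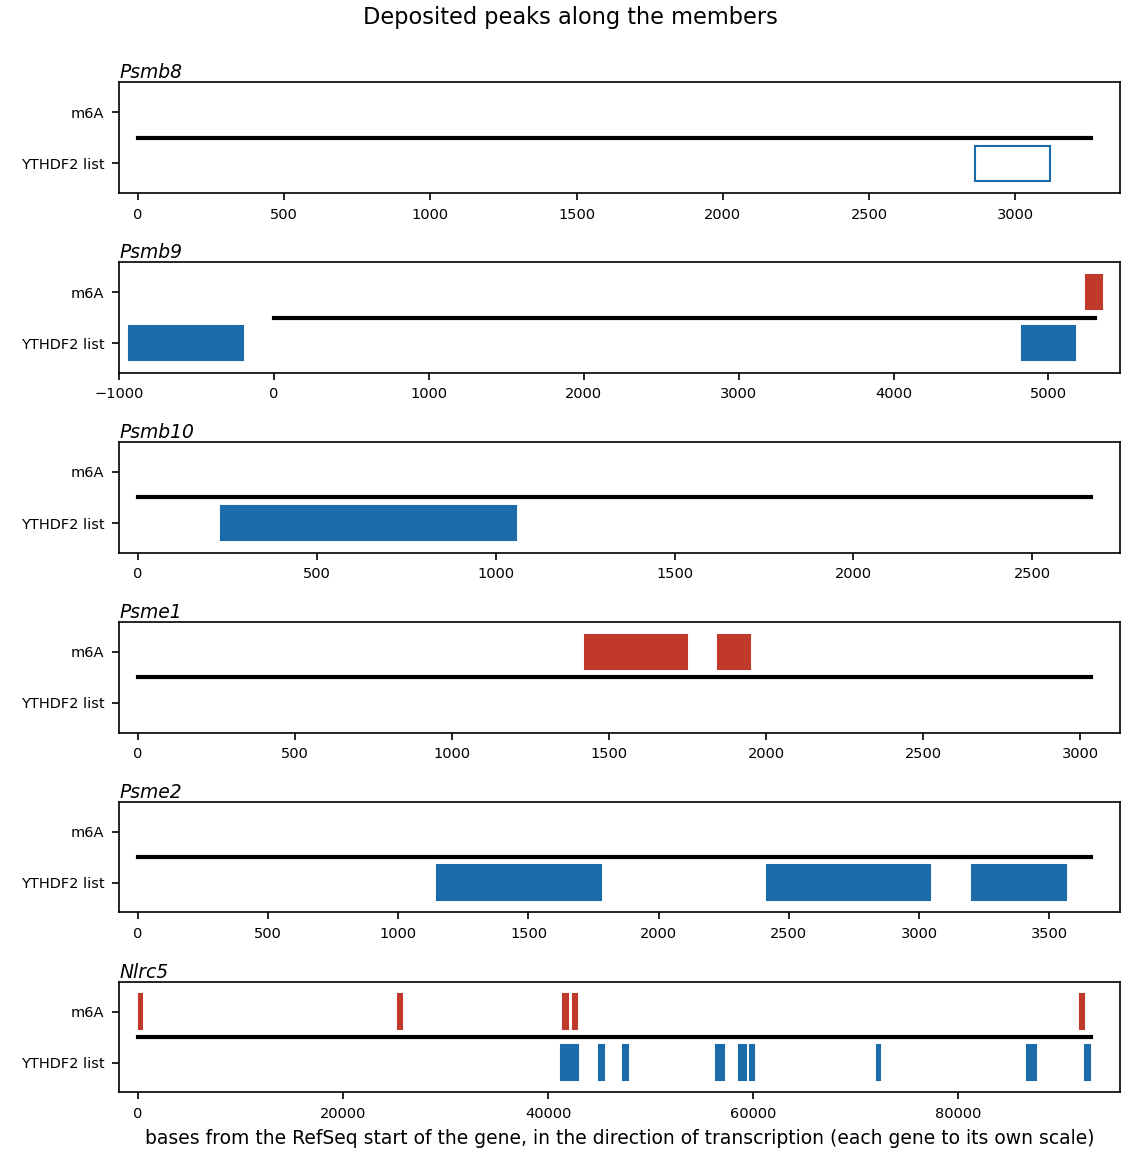
Deposited m6A peaks (red, above each line) and peaks of the list deposited as YTHDF2 (blue, below) along the 6 members, in bases from the RefSeq start in the direction of transcription, each gene to its own scale; very short peaks in Nlrc5 are widened to be seen. The open box in Psmb8 is a peak that the list names for Gm20496; in Nlrc5, 2 m6A peaks lie above 1 blue peak, and in Psmb9 and Psme1 none does.

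The list deposited as YTHDF2 peaks named 4 of 6 members (66.7%): Psmb9, Psmb10, Psme2 and Nlrc5, with 15 peaks. The share was 64.5% of all tested genes and 89.3% of those at or above the lowest member's mean normalized count. All 17843 peak names in this list start with m6a_peak, although the file and the labels name YTHDF2, and from which antibody the peaks come was not tested. The list has no column names, so the authors' fold enrichment at the summit was read by column position. It ran from 2.11 to 3.46 over the member peaks, with a median of 2.50. The median of the whole list was 3.01, and 4 of the 15 member peaks were above it.

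**Figure D4:**
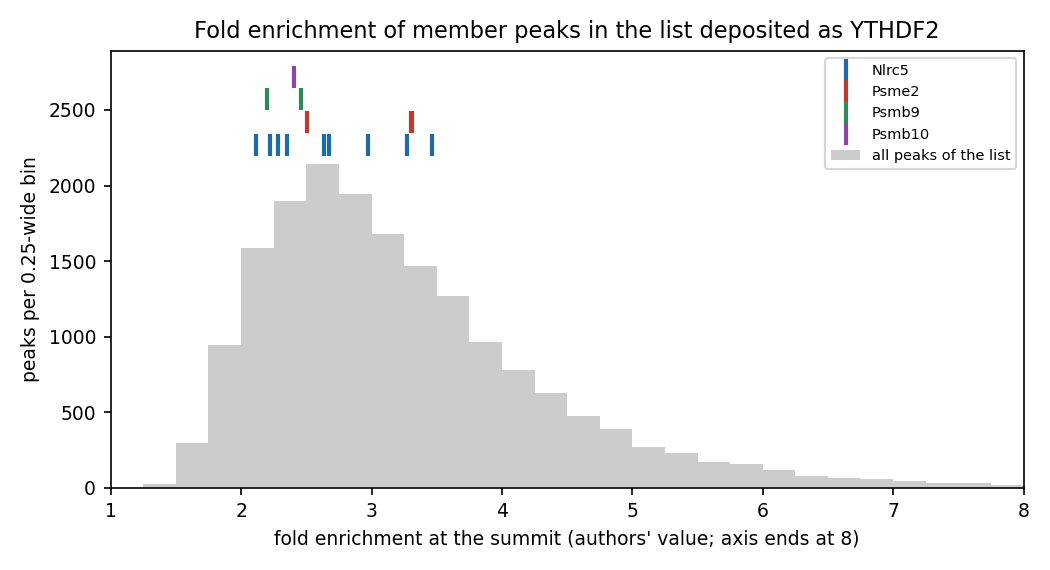
Number of peaks in the list deposited as YTHDF2 (y axis, bins 0.25 wide) by the authors' fold enrichment at the summit (x axis), with the 15 member peaks as coloured ticks above the bars. The ticks lie between 2.11 and 3.46, around and below the list's median of 3.01.

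Nlrc5 held 9 of the 15 peaks, a number reached by 166 genes, or 2.18% of those in the list. The gene spans 92938 bases, and this share is not matched for gene length or abundance. Their fold enrichments had a median of 2.63. The strongest, 3.46 with a −log10 q of 23.8, lay at 94493978 to 94494307, and the weakest, 2.11 with a −log10 q of 7.14, at 94492957 to 94493566, the neighbouring peak. The widest, 1649 bases from 94475607 to 94477255, covered nearly all of the long exon described above and had a fold enrichment of 2.35. The last, 94526658 to 94527128, lay wholly in the final exon, with a fold enrichment of 2.67.

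The other 7 Nlrc5 peaks lay over the row of shorter exons between them. Across all 9 peaks, 16 listed exons were touched, of which 11 were 84 bases long, 14 had a length divisible by 3, and the shortest was 78 bases. Summits fell in an exon for 5 of the 9 peaks and in an intron for 4. In these 7 peaks exons made up between 11.5% and 37.3% of the peak's bases. The list calls the Nlrc5 transcript "other" and gives it no UTR, so its exons could not be split into coding and untranslated parts.

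Psme2 (chromosome 14, 55587440 to 55591101, minus strand) had 3 peaks spread over its length, at 55587536 to 55587899, 55588059 to 55588684 and 55589323 to 55589954. Their fold enrichments were 3.31, 2.50 and 3.31, with −log10 q of 21.3, 10.9 and 19.3. All 3 summits fell in introns of the listed transcript, and coding exons made up 32.1%, 27.6% and 30.7% of the bases. Psme1, the gene of the partner subunit 5912 bases away, had m6A peaks and no listed YTHDF2 peak, and Psme2 the reverse.

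Psmb10 (chromosome 8, 105935728 to 105938392, minus strand) had 1 peak at 105937338 to 105938160, with a fold enrichment of 2.41, a −log10 q of 12.1 and a summit in an intron. The list names that peak also for Gm16156, an antisense transcript with a mean normalized count of 0.933. It overlapped 4 coding exons and part of the 5′ UTR of the listed transcript, and exons made up 53.0% of its bases.

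Psmb9 had 2 peaks by name. The first, at 34182162 to 34182499, had a fold enrichment of 2.46 and a −log10 q of 20.1, with its summit in the last coding exon, and began 75 bases away from the end of the m6A peak. The second, at 34187530 to 34188268, had a fold enrichment of 2.20 and was named for both Psmb9 and Tap1, which start back to back here. It overlapped the 5′ UTR of the listed Psmb9 transcript, which reaches 34187764, by 31.8% of its bases. Its summit, at 34188104, lay outside that transcript, at −773 relative to the RefSeq start of Psmb9, and inside coding sequence of Tap1. The peaks carry no strand, so which RNA it came from cannot be told from the list, and counting by summit leaves Psmb9 with 1 peak and the members with 14.

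Psmb8 was not named in the list. A listed peak at 34201056 to 34201311 nevertheless lay wholly inside Psmb8 (chromosome 17, 34198195 to 34201454), with its summit 2987 bases into a gene of 3260 bases. Its fold enrichment was 2.66 and its −log10 q 20.6, and the list named it only for an intron of Gm20496, an antisense transcript. Counted by position in place of symbol, 5 of 6 members had a peak. Psme1 was then the 1 member without one.

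The standard subunits and other activators carried peaks too. Psmb6 and Psmb7 each had 1 m6A peak and 1 peak of the list deposited as YTHDF2, at fold enrichments of 2.65 and 2.72. Psmb5 had 2 such peaks at 2.29 and 2.06 and no m6A peak, and Psme3 and Psme4 had 3 each and no m6A peak, the highest of them at 4.98 in Psme4. Pomp had 1 of each kind, with a fold enrichment of 2.53. Over the other core subunits, 3 of 11 tested genes had m6A and 5 of 11 a YTHDF2 peak; over the regulatory particle it was 11 and 13 of 18, and over the MHC class I pathway 9 and 11 of 11.

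Of the 8 member m6A peaks, 2 overlapped a YTHDF2 peak of the same gene by at least 1 base (25%), against 4431 of 9289 placed m6A peaks in the series (47.7%). Both lay in the long Nlrc5 exon, wholly within the widest YTHDF2 peak, so they share 1 target. The final Nlrc5 m6A peak stood 303 bases from the nearest YTHDF2 peak, the first 41176 bases and the second 15844 bases. Psmb9 and Nlrc5 were the members named in both lists, and 5 of 6 were named in at least 1. Psmb8 was named in neither, although by position it held the peak named for Gm20496.

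The nearest genes on each side were read for the same comparison. Tap1 lies 225 bases from Psmb9 and 969 bases from Psmb8, and Tap2, the other transporter chain, 3024 bases beyond Psmb8; their values are given above. On the far side of Psmb9, the authors' deposited table put H2-DMb1, a chaperone of MHC class II, at 0.29 ± 0.16 (adjusted p 0.596). These 5 adjacent genes of the MHC region, 2 of them members, ran from 0.17 to 0.29, and none passed. Next to Psme2, Rnf31, a ubiquitin ligase subunit that builds linear chains, was at 0.24 ± 0.15 and Emc9, which overlaps the end of Psme1 by 9 bases, at −0.12 ± 0.23 in the authors' deposited table. Next to Nlrc5, Cpne2 was at 0.17 ± 0.12, the pseudogene Ap3s1-ps2 at 0.17 ± 0.39 and the overlapping 9330175E14Rik at −0.12 ± 0.19 in the authors' deposited table. The noncoding gene Gm51584, at 94498915 to 94513909, also overlaps Nlrc5, by 14995 bases, and its span covers the listed peak at 94506354 to 94506672. The miRNA gene Mir7072 overlaps Nlrc5 by 60 bases. Beside Psmb10, Ctrl and Lcat had mean normalized counts of 16.5 and 4.57 and no adjusted p, as did Fitm1 beside Psme1 at 0.271. How reads shared by overlapping genes were counted, and whether strand was used, is not stated in the labels.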

How the data were processed

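Altogether 3 deposited files were used, and 0 of their columns held values of a single library, so depth per library is unknown and the authors' own comparison was used and no count test was run. Per the file headers, the expression table carries the column names of a DESeq2 result. Per the file headers, the mean normalized count (a signal) is averaged over libraries. The log2 fold change with its SE, the Wald statistic (a score), the p-value and the adjusted p-value were deposited by the authors. Applying Benjamini-Hochberg to the 10778 genes with an adjusted p gave back the deposited values, all at a mean normalized count of at least 48.0. The m6A list holds positions only; its name and the labels name exomePeak2. In the other list the authors deposited a fold enrichment (a ratio), −log10 p and −log10 q per peak; no source used here names its peak caller. HISAT2, HOMER, ChIPseeker and mm10 are named in the submitters' processing notes. Both peak lists are single lists for WT, with no value per replicate.

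Of 45541 rows, 3234 repeats were dropped. Peak starts were made 1-based. Symbols were joined directly or by RefSeq synonym, and an m6A peak was placed when within 1000 bp of its RefSeq gene. Intervals are 95% normal intervals from the deposited SE. Scripts used Python 3.11.15, pandas 2.3.3 and scipy 1.17.1, and the adjustment was tested on simulated data. Genes outside the members were named by rule: counterparts, pathway partners, the highest and lowest of each list, genes past the test and nearest neighbours. Members and lists were chosen with earlier results of these data known. Some genes that this rule or the marker lists cover are not reported here.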

Additional observations from a re-analysis of the deposited data

How the results depend on the processing

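The members and lists had 0 calls under every alternative that was run, but several alternatives could not have changed this. With no filter on low counts, Bonferroni adjustment or a threshold of 0.1, 0 of 6 members passed. The same held with centring on all tested genes or on the most abundant 25%, and in a test against a 1.5-fold change. The members' lowest adjusted p over these was 0.55. Bonferroni adjustment and the 1.5-fold test are stricter than the deposited Wald test. The lowest deposited adjusted p of a member, 0.569, already exceeded 0.1, so none of these 3 settings could add a call. Only centring changes the log2 fold changes, and it moved those of the members to between 0.02 and 0.26, all above 0. The pathway lists kept 0 calls with no filter and with centring on the most abundant genes. With the errors of a pair added in full, all 5 intervals against counterparts include 0, which follows from their being wider. Members with m6A stayed at 3 by gene ID or with peaks of at most 1000 bp. Members with a YTHDF2 peak stayed at 4 at a fold enrichment of at least 2 or a −log10 q of at least 5. Overlapping m6A peaks stayed at 2 when 50% of the peak was required. All member peaks already met these bounds on length, fold enrichment and −log10 q, so those bounds could not lower the counts. Joining by position (5 members) and by summit (4) were chosen after seeing the data. No paired analysis was possible because no file used here holds values per library; for the same reason no replicate was left out, and depth per library sets a limit that cannot be given.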

Other observations

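Peak names in the list deposited as YTHDF2 are numbered by chromosome and position up to 25487, while 17843 are listed, so 7644 numbers are not in the list used here. Within the run of 15 numbers that spans the 9 Nlrc5 peaks, 6 are not listed. Between the listed peaks that flank Psme1, which has no listed peak, 1 number is not listed, for Psmb10 it is 2 of 3, for Psme2 1 of 4, and for Nlrc5 8 of 17 by the same count. For Psmb8 and Psmb9 none is skipped. Where the skipped peaks lie, and why they are not listed, was not tested.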
